A study of Mus musculus with 9 samples.

Results

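The endoplasmic reticulum (ER) is where membrane and secreted proteins are folded, glycosylated and checked before they leave for the cell surface. The genes described here are 34 genes of the ER folding machinery and of the unfolded protein response, out of 18193 genes measured on microarrays of mouse blood stem and progenitor cells. Each gene is represented by the brightest of the probe sets that the array annotation gives to that gene alone, that is the probe set with the highest mean over the 9 arrays. By role the 34 genes are 3 stress sensors, 3 transcription factors, 3 targets of ATF4, 5 chaperones, 6 co-chaperones and chaperone partners, 5 disulfide isomerases, 7 genes of ER-associated degradation and 2 of protein entry into the ER.

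The cells were LSK cells, the Lin-Sca1+cKit+ fraction of bone marrow that holds the stem cells and early progenitors of blood, sorted 8 weeks after transplantation into lethally irradiated C57BL/6 mice. Donor lineage-negative marrow of the same strain had been cultured with cytokines and transduced with a retroviral vector for a transgene, whose expression GFP marks. LSK cells from these recipients were sorted by GFP into a GFP-positive group (transgene positive, 3 arrays) and a GFP-negative group (transgene negative cells from the same kind of recipients, 3 arrays). The control group (3 arrays) was LSK cells of recipients of wild type LSK cells. Which vector, if any, the wild type cells carried is not stated in the labels. The promoter that drives the transgene is not given in the sources used here. Marrow of 2 to 5 mice was pooled for each array, and the labels do not tie a numbered GFP-positive sample to the mice of a GFP-negative one, so the spread between arrays of a group is a spread between pools.

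When unfolded proteins build up in the ER, 3 membrane sensors start the unfolded protein response. IRE1 (Ern1) splices the mRNA of the transcription factor XBP1, PERK (Eif2ak3) slows protein synthesis and so favours the translation of ATF4, and ATF6 is cut to release a transcription factor. XBP1 and ATF6 raise the genes of chaperones, disulfide isomerases and the degradation pathway, while ATF4 raises amino acid synthesis genes and, with CHOP (Ddit3), genes tied to cell death. Array levels report mRNA amounts, so they show neither the splicing of Xbp1, nor the translation of Atf4, nor the cutting of ATF6.

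Values are log2 RMA values, a normalized log-scale brightness on which a difference of 1 is a 2-fold difference, and errors of group levels are SDs over the 3 arrays of a group. The LSK label was set beside Kit, Cd34, Flt3 and Ptprc, 4 of 5 listed genes, which were all above the filter on dim probe sets. Their summed level was 11.55 to 11.66 on GFP-positive, 11.32 to 11.63 on GFP-negative and 11.46 to 11.60 on control arrays. Of these genes only Kit is part of the LSK definition, and a summed level does not show Kit by itself. Ly6a, which encodes Sca1, was not analysed here, so these genes cannot check the Sca1 part of the label. Control 3 and GFP-positive 2 stood apart from the other arrays: limma's array weights were 0.364 and 0.369 for them against 0.809 to 2.38 for the others, and the gap between the 3′ and 5′ Gapdh probe sets, a sign of RNA length, was 3.87 and 3.22 against 2.47 to 2.89. The same gap for Actb was -0.71 on control 3 and -1.13 on GFP-positive 2, against -0.72 to -0.55 on the others. The Actb gap was thus not larger on either array.

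None of the tested members passed the test in any comparison. Of the 34 genes, Chac1 was below the filter (a mean over 9 arrays above 4.03), which leaves 33 members among the 12400 genes tested with limma, with Benjamini-Hochberg adjustment over all 12400 and a threshold of 0.05. In GFP-positive against control cells 0 of 33 members were called, as were 0% of all genes. GFP-negative against control and GFP-positive against GFP-negative also gave 0 of 33 members and 0% of all genes. The smallest adjusted p of a member in limma was 0.720 for GFP-positive against control, 0.862 for GFP-negative against control and 1.00 for GFP-positive against GFP-negative. Both comparisons against control use the same 3 control arrays, so an error in those arrays enters both.

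By point estimate, most members were higher in GFP-positive cells. The log2 difference from control was above 0 for 23 of 33 members and below 0 for 10, with a median of 0.22, while 47.2% of all genes tested were above 0 and their median was -0.03. Against GFP-negative cells the split was again 23 to 10 with a median of 0.18, beside 51.8% and 0.01 for all genes. GFP-negative minus control gave 18 members above 0 and 15 below, with a median of 0.08, beside 46.5% and -0.04 for all genes. These medians depended on single arrays. GFP-positive minus control had a median of 0.15 without control 3, 0.14 without GFP-positive 3, 0.33 without GFP-positive 2 and 0.34 without control 2. GFP-positive minus GFP-negative had 0.08 without GFP-negative 3 (19 members above 0 and 14 below), 0.11 without GFP-positive 3 and 0.23 without GFP-positive 2. GFP-negative minus control had -0.01 without control 3. The level of an mRNA in a sorted pool depends on the mix of cells as well as on the RNA per cell, and fewer cells of a type cannot be told apart from less RNA per cell.

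**Figure D1:**
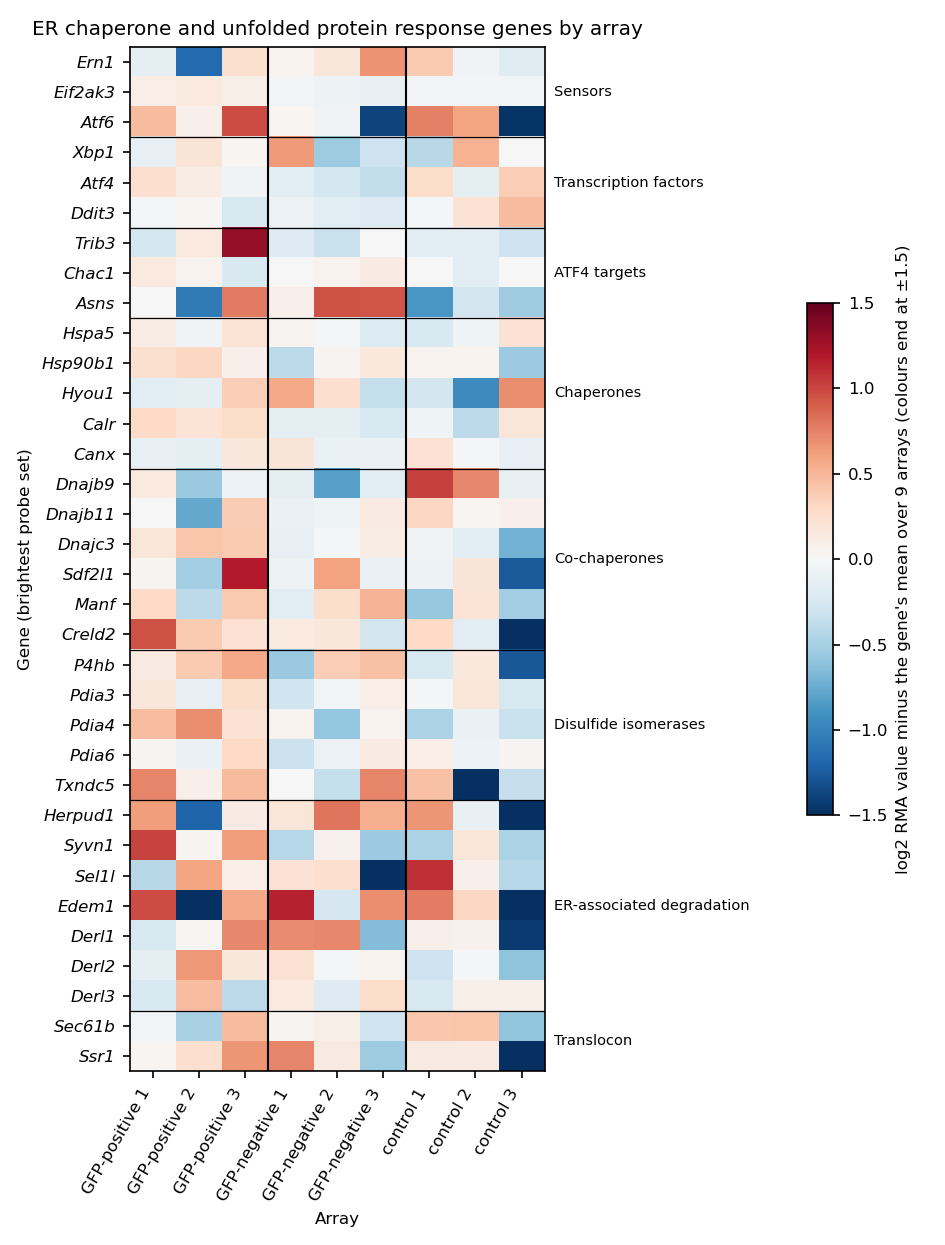
Log2 RMA value of each of the 34 genes (rows, by role) on each of the 9 arrays (columns, GFP-positive, GFP-negative, control) minus that gene's mean over the 9 arrays; red is above the mean, blue below, and colours end at ±1.5. Control 3 is the lowest array for 12 of the 33 tested genes.

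In the limma fit 3 members had an unadjusted p under 0.05 in GFP-positive against control, all of them higher (Pdia4, Dnajc3 and Syvn1), where 3.3% of all genes were higher at that level and 3.19% lower. That count was 1 when GFP-positive 1, GFP-positive 3, GFP-negative 1 or GFP-negative 3 was left out, 2 without GFP-positive 2, GFP-negative 2 or control 3, and 4 without control 2. In GFP-negative against control the count was 2, with Asns higher (2.83% of all genes) and Dnajb9 lower (2.74%). It was 0 without GFP-negative 2, and 1 without GFP-negative 3, control 1 or control 2. In GFP-positive against GFP-negative it was 1, Syvn1, which was higher (1.28%). It was 0 without GFP-negative 1 or GFP-negative 3, 2 without control 3 and 3 without GFP-positive 3.

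The ER stress element is a sequence bound by ATF6 together with NF-Y, and it links the sensors to the chaperone genes. Its consensus, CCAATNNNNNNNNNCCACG, was searched on both strands in the 250 bases upstream of the RefSeq start of each gene (build GRCm38.p6). It occurred in 9 of the 30 members with such a window (30.0%), against 35 of 27025 genes (0.130%). These 9 were Hspa5, Hsp90b1, Calr, Canx, Dnajc3, Creld2, Pdia6, Syvn1 and Derl3. The shorter ER stress element II (ATTGG, any base, then CCACG) occurred in 1 member, Herpud1 (0.0370% of genes). The C/EBP-ATF composite element read by ATF4 was searched as TGATGNAA and was found in Asns, Chac1, Herpud1 and Txndc5, that is 4 of 30 members (13.3%) against 3.91% of genes. Manf, Hyou1, Atf6 and Derl1 had no window. The members were chosen as genes of ER folding and the unfolded protein response, so these shares are a description and not a test. The sites below belong to the genes whose levels are described next. Each is printed 5′ to 3′ in the direction of its gene, from RefSeq, with the matched element in capitals and 12 bases on either side, so an element on the opposite strand, as in Calr, Creld2 and the second site of Hsp90b1, appears as its reverse complement.
Hspa5 (chr2:34772013-34772055, plus strand): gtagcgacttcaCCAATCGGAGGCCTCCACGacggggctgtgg
Hsp90b1, far site (chr10:86705626-86705668, minus strand): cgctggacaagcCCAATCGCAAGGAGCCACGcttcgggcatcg
Hsp90b1, near site (chr10:86705521-86705563, minus strand): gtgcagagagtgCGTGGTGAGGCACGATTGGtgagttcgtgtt
Calr (chr8:84847063-84847105, minus strand): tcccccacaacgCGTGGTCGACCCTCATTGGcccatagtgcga
Canx (chr11:50325788-50325830, minus strand): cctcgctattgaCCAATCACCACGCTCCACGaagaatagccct
Dnajc3 (chr14:118937815-118937857, plus strand): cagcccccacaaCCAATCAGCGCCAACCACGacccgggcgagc
Creld2 (chr15:88819508-88819550, plus strand): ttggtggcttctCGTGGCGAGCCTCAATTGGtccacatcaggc
Syvn1 (chr19:6046520-6046562, plus strand): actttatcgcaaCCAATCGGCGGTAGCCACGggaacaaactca
Herpud1, ER stress element II (chr8:94386365-94386399, plus strand): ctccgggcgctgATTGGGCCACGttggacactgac
Asns, C/EBP-ATF composite element (chr6:7693213-7693244, minus strand): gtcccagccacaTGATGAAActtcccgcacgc

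**Figure D2:**
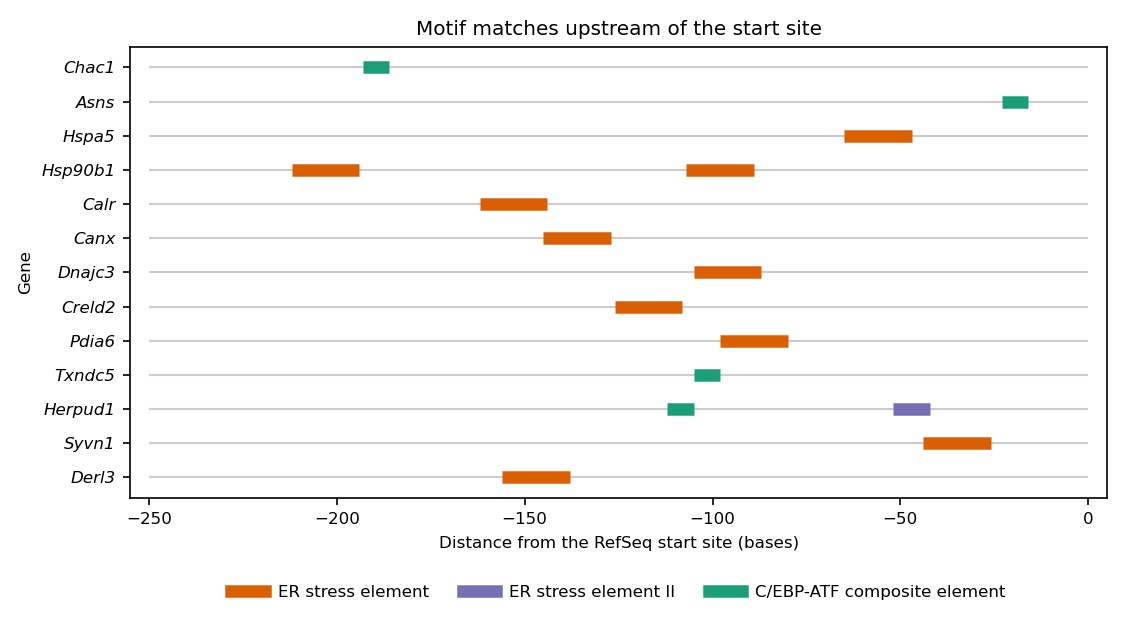
Position of each motif match (coloured boxes) in the 250 bases upstream of the RefSeq start site of the 13 genes that hold one; the x axis is the distance from the start site in bases. The ER stress elements lie between positions -212 and -26.

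The 9 members with an ER stress element were higher in GFP-positive than in control cells in 7 cases, with a median log2 difference of 0.35, and the 20 tested members that had a window but no such element were higher in 12, with a median of 0.18. In GFP-negative against control cells the medians were -0.03 with the element and 0.09 without it. In GFP-positive against GFP-negative cells they were 0.27 and 0.16. Without control 3 the medians of GFP-positive minus control were 0.24 with the element and 0.03 without it, and without control 2 they were 0.20 and 0.29, so their order turned. Without GFP-positive 2 they were 0.30 and 0.29. These are descriptions of point estimates, and a match of letters is not a measured binding site.

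Among the sensors, Ern1 had 7.22, 6.20 and 7.61 on the GFP-positive arrays, 7.42, 7.54 and 8.04 on the GFP-negative arrays and 7.76, 7.31 and 7.19 on the control arrays. GFP-positive 2 was the lowest array and the groups overlapped, with a log2 difference of -0.41 ± 0.39 (SE) for GFP-positive minus control and -0.65 ± 0.39 for GFP-positive minus GFP-negative. Without GFP-positive 2 these differences of Ern1 were -0.00 and -0.25. Eif2ak3, the kinase PERK, had 6.40, 6.45 and 6.39 on GFP-positive arrays, 6.26, 6.22 and 6.19 on GFP-negative arrays and 6.26, 6.25 and 6.26 on control arrays. The 3 GFP-positive arrays were above the other 6 for Eif2ak3, by a difference of 0.15 ± 0.22 from control and 0.19 ± 0.22 from GFP-negative cells, both within the moderated error. Eif2ak3 had the smallest range over the 9 arrays of the tested members, 0.26. A dimmer Eif2ak3 probe set above the filter gave -0.12 from control and 0.73 from GFP-negative cells. Atf6 had 7.32, 6.92 and 7.82 on GFP-positive arrays, 6.87, 6.79 and 5.45 on GFP-negative arrays and 7.60, 7.43 and 5.37 on control arrays. Control 3 and GFP-negative 3 were far below the others for Atf6, and the difference of 0.55 ± 0.62 between GFP-positive and control cells became -0.16 without control 3. Its difference of 0.98 ± 0.62 between GFP-positive and GFP-negative cells was 0.52 without GFP-negative 3 and 0.23 with the mean of its 3 probe sets.

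Of the 3 transcription factors, none passed the test, and the point estimates of GFP-positive minus control were near 0 or turned with the processing. Atf4 had 10.84, 10.70 and 10.54 on GFP-positive arrays, 10.42, 10.33 and 10.22 on GFP-negative arrays and 10.86, 10.44 and 10.96 on control arrays. The GFP-negative arrays were the 3 lowest for Atf4, with a difference of -0.43 ± 0.26 from control, while GFP-positive minus control was -0.06 ± 0.26, or 0.04 without control 3. The mean of the 3 Atf4 probe sets gave -0.21 for GFP-negative and -0.08 for GFP-positive minus control. Its dimmer probe sets gave 0.07 and -0.26 for GFP-negative minus control. Ddit3, which encodes the stress factor CHOP, had 7.14, 7.18 and 6.92 on GFP-positive arrays, 7.08, 7.00 and 6.97 on GFP-negative arrays and 7.14, 7.37 and 7.63 on control arrays. The GFP-negative arrays did not overlap with control for Ddit3 either, and the differences from control were -0.30 ± 0.25 for GFP-positive and -0.37 ± 0.25 for GFP-negative cells. The mean of the 2 Ddit3 probe sets gave 0.22 for GFP-positive and -0.24 for GFP-negative cells. Xbp1 had 7.25, 7.57 and 7.40 on GFP-positive arrays, 8.01, 6.84 and 7.06 on GFP-negative arrays and 6.96, 7.90 and 7.37 on control arrays. The 3 groups overlapped for Xbp1, and the GFP-positive and control means were both 7.41.

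Xbp1 is measured by 4 single-gene probe sets, and they did not give the same picture. The dimmest was singled out after its values were seen. It had 7.69, 8.38 and 7.70 on GFP-positive arrays, 7.25, 7.84 and 7.07 on GFP-negative arrays and 5.09, 5.82 and 3.43 on control arrays. All 3 control arrays were below the other 6, with a difference of 3.14 ± 0.56 for GFP-positive minus control (95% interval 1.89 to 4.39) and 2.60 ± 0.56 for GFP-negative minus control. In a limma fit of every probe set by itself the adjusted p over 22428 probe sets was 0.392 for GFP-positive and 0.591 for GFP-negative cells, so neither difference passed. Only 0.0936% of the probe sets were at least as much higher than control in GFP-positive cells, and 0.147% had a difference of at least that of this probe set in GFP-negative cells. Without control 3, the lowest array, the difference from control was 2.47 in GFP-positive and 1.93 in GFP-negative cells. The other 3 probe sets of Xbp1 differed between GFP-positive and control cells by -0.00 to 0.24. Taking the mean of the 4 probe sets for the gene gave 0.87 for GFP-positive minus control and 0.60 for GFP-negative minus control. Which stretch of the transcript each probe set reads was not analysed here.

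**Figure D3:**
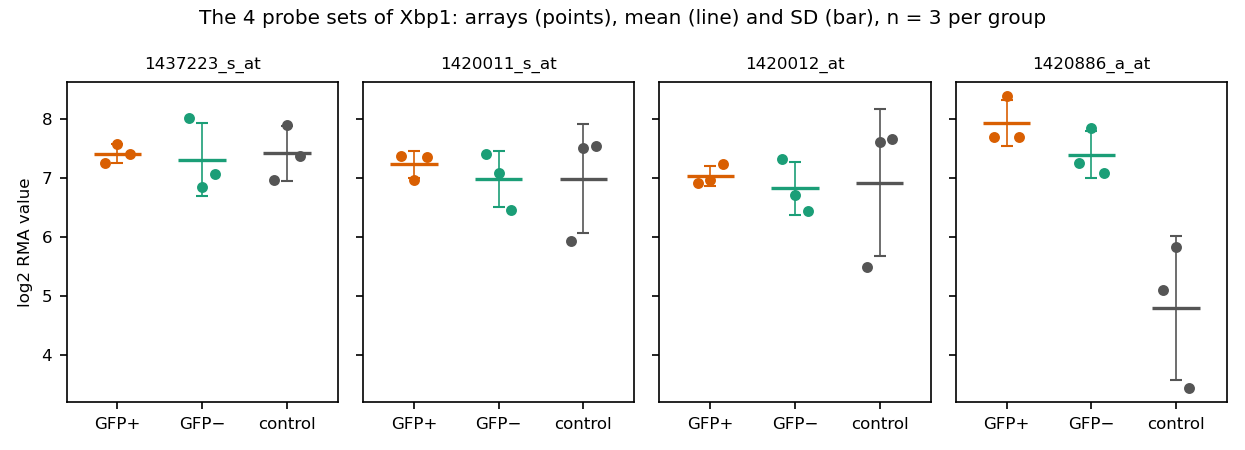
Log2 RMA values of the 4 probe sets of Xbp1 (panels) on each array (points), with the group mean (line) and SD (bar), n = 3 arrays per group. In the last panel, the dimmest probe set, the control arrays lie between 3.43 and 5.82, below all GFP-positive and GFP-negative arrays, and in the other panels the groups overlap.

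Of the targets of ATF4, asparagine synthetase (Asns) had 6.42, 5.37 and 7.20 on GFP-positive arrays, 6.50, 7.38 and 7.37 on GFP-negative arrays and 5.55, 6.15 and 5.89 on control arrays. The GFP-negative arrays were all above control for Asns, and the difference of 1.22 ± 0.47 (limma, unadjusted p = 0.027, adjusted p = 0.862) was the largest upward difference of a member in that comparison. The second Asns probe set gave 1.36. GFP-positive 2 was the lowest of the 9 arrays for Asns, and GFP-positive minus control was 0.47 ± 0.47, or 0.95 without that array. Trib3, a pseudokinase induced with CHOP, averaged 4.91 ± 0.82 in GFP-positive, 4.34 ± 0.17 in GFP-negative and 4.30 ± 0.08 in control cells. Its GFP-positive mean rests on GFP-positive 3 at 5.83, and the other 8 arrays were between 4.17 and 4.66. On this probe set the GFP-positive difference was 0.61 from control and 0.57 from GFP-negative cells. With the mean of the 2 Trib3 probe sets these turned to -0.24 and -0.30. Chac1, a glutathione-degrading enzyme of the CHOP branch, was dim throughout at 3.28 ± 0.19 in GFP-positive, 3.35 ± 0.06 in GFP-negative and 3.24 ± 0.09 in control cells and was not tested.

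Of the 5 chaperones, 4 were higher and 1 was lower in GFP-positive than in control cells by point estimate, with a median log2 difference of 0.20, or 0.06 without GFP-positive 3 and 0.09, with 3 of 5 higher, without control 2. Hspa5 (BiP), the HSP70 of the ER that holds the sensors inactive, had 11.13, 10.96 and 11.22 on GFP-positive arrays, 11.06, 10.99 and 10.81 on GFP-negative arrays and 10.79, 10.95 and 11.24 on control arrays. The groups overlapped for Hspa5, with differences of 0.11 ± 0.25 for GFP-positive and -0.04 ± 0.25 for GFP-negative minus control. A second Hspa5 probe set had 10.90, 11.11 and 10.83 on GFP-positive arrays, 10.36, 10.46 and 10.24 on GFP-negative arrays and 10.58, 10.47 and 10.09 on control arrays. There, in a probe set chosen after its values were seen, the GFP-positive arrays were above the other 6, by 0.57 from control and 0.59 from GFP-negative cells, but limma's adjusted p from control was 0.824. Hsp90b1 (GRP94), the HSP90 of the ER, had 10.99, 11.06 and 10.83 on GFP-positive arrays, 10.35, 10.79 and 10.91 on GFP-negative arrays and 10.81, 10.80 and 10.21 on control arrays. GFP-positive was above control on every array for Hsp90b1, by 0.35 ± 0.28, or 0.15 without control 3.

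Calr, the soluble lectin chaperone calreticulin, had 12.03, 11.94 and 12.00 on GFP-positive arrays, 11.59, 11.58 and 11.48 on GFP-negative arrays and 11.66, 11.34 and 11.91 on control arrays. The GFP-positive arrays were above the other 6 for Calr, by 0.35 ± 0.25 from control and 0.44 ± 0.25 from GFP-negative cells. Canx (calnexin), its membrane-bound relative, had 9.94, 9.91 and 10.22 on GFP-positive arrays, 10.25, 9.95 and 9.95 on GFP-negative arrays and 10.27, 10.04 and 9.92 on control arrays. The groups overlapped for Canx, with a difference of -0.05 ± 0.25 between GFP-positive and control cells. Its dimmer probe sets gave 0.78 and -0.13 for GFP-positive minus control. The mean of the Canx probe sets gave 0.20 for GFP-positive and 0.45 for GFP-negative minus control, so the sign depended on the probe set. Hyou1, which exchanges nucleotide on BiP, averaged 9.47 ± 0.30 in GFP-positive, 9.60 ± 0.47 in GFP-negative and 9.27 ± 0.83 in control cells.

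Of the 6 co-chaperones and chaperone partners, 4 were higher and 2 lower in GFP-positive than in control cells by point estimate, with a median of 0.50. That median was 0.23 without control 3 and 0.19 without GFP-positive 3. Dnajc3, a J-domain partner of BiP that also holds back PERK, had 8.28, 8.52 and 8.50 on GFP-positive arrays, 7.98, 8.07 and 8.21 on GFP-negative arrays and 8.05, 7.93 and 7.39 on control arrays. Its GFP-positive arrays were above the other 6, by 0.64 ± 0.27 from control (limma, unadjusted p = 0.039, adjusted p = 0.732), by 0.44 without control 3 and by 0.23 with the mean of its 5 probe sets. Dnajb9 (ERdj4), a J-domain protein and target of XBP1, went the other way. It had 7.80, 7.09 and 7.57 on GFP-positive arrays, 7.51, 6.83 and 7.48 on GFP-negative arrays and 8.67, 8.37 and 7.54 on control arrays. The GFP-negative arrays were all below control for Dnajb9, by -0.92 ± 0.37 (limma, unadjusted p = 0.034, adjusted p = 0.864), and the GFP-positive difference of -0.70 ± 0.37 was the lowest of the members in its comparison. Control 3 was the lowest control array, and without it the differences were -1.25 for GFP-negative and -1.03 for GFP-positive cells.

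Creld2, an ER stress-induced protein of the secretory pathway, had 9.38, 8.81 and 8.64 on GFP-positive arrays, 8.57, 8.59 and 8.14 on GFP-negative arrays and 8.72, 8.25 and 6.69 on control arrays. Its difference of 1.05 ± 0.49 between GFP-positive and control cells was the highest of the members but was 0.46 without control 3, and GFP-negative minus control was 0.54, or -0.05 without it. The GFP-positive arrays of Creld2 lay above the GFP-negative ones, by 0.51 ± 0.49. Manf, a secreted partner of BiP, had 9.64, 8.95 and 9.73 on GFP-positive arrays, 9.17, 9.61 and 9.85 on GFP-negative arrays and 8.77, 9.55 and 8.82 on control arrays. All groups overlapped for Manf, with differences from control of 0.39 ± 0.35 for GFP-positive and 0.49 ± 0.35 for GFP-negative cells. Sdf2l1, which works in a complex with Dnajb11, averaged 6.95 ± 0.87 in GFP-positive, 6.86 ± 0.40 in GFP-negative and 6.34 ± 0.77 in control cells. Dnajb11 (ERdj3) averaged 9.13 ± 0.58 in GFP-positive, 9.24 ± 0.13 in GFP-negative and 9.39 ± 0.15 in control cells. Without GFP-positive 2 its GFP-positive difference was 0.06 from control and 0.20 from GFP-negative cells.

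All 5 disulfide isomerases, which form and rearrange disulfide bonds in folding proteins, were higher in GFP-positive cells by point estimate, with a median difference of 0.76 from control and 0.28 from GFP-negative cells. The median from control was 0.40 without control 3 and 0.38 without control 2, and 4 of the 5 were higher without GFP-positive 3. The median from GFP-negative cells was 0.08, with 4 of 5 higher, without GFP-negative 1, 0.46 without GFP-negative 3 and 0.18 without GFP-positive 3. Pdia4 (ERp72) had 7.89, 8.11 and 7.64 on GFP-positive arrays, 7.47, 6.84 and 7.47 on GFP-negative arrays and 6.95, 7.32 and 7.09 on control arrays. The GFP-positive arrays were above the other 6, by 0.76 ± 0.29 from control (limma, unadjusted p = 0.025, adjusted p = 0.720) and 0.62 ± 0.29 from GFP-negative cells. Leaving out control 3 gave 0.75 for Pdia4 against control, and the mean of its 2 probe sets gave 0.34. P4hb, the founding protein disulfide isomerase, had 9.01, 9.26 and 9.44 on GFP-positive arrays, 8.31, 9.24 and 9.30 on GFP-negative arrays and 8.64, 9.03 and 7.60 on control arrays. Control 3 was the lowest array for P4hb, and the difference of 0.81 ± 0.42 from control was 0.40 without it. Txndc5 averaged 7.37 ± 0.33 in GFP-positive, 7.07 ± 0.55 in GFP-negative and 6.40 ± 1.11 in control cells, with control 2 at 5.20. Pdia3, the partner of calreticulin and calnexin, averaged 9.99 ± 0.20 in GFP-positive, 9.81 ± 0.20 in GFP-negative and 9.86 ± 0.21 in control cells. Pdia6 averaged 7.31 ± 0.20 in GFP-positive, 7.13 ± 0.22 in GFP-negative and 7.25 ± 0.10 in control cells, and on these probe sets neither Pdia3 nor Pdia6 differed beyond its error. With the mean of each gene's probe sets GFP-positive minus control was 0.53 for Pdia3 and 0.15 for Pdia6.

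**Figure D4:**
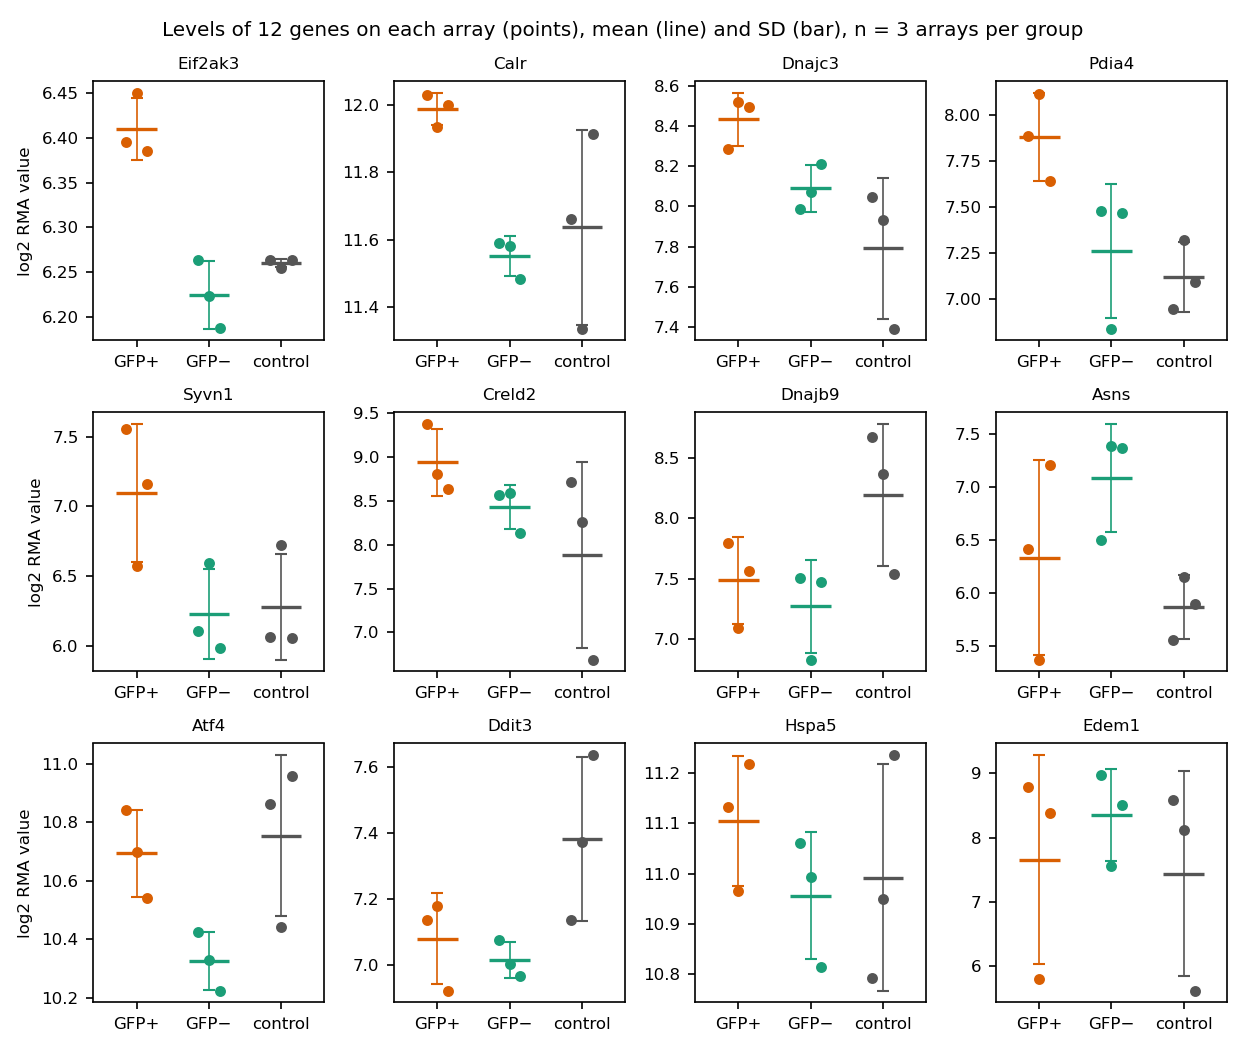
Log2 RMA values of 12 genes on each array (points), with the group mean (line) and SD (bar), n = 3 arrays per group; each panel has its own scale. In the panels of Eif2ak3, Calr, Dnajc3 and Pdia4 the GFP-positive arrays lie above the other 6.

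In ER-associated degradation, which sends misfolded proteins back to the cytosol for the proteasome, 5 of 7 genes were higher and 2 lower in GFP-positive than in control cells by point estimate, with a median of 0.22. Without control 3 it was 4 of 7 with a median of 0.02, while leaving out other single arrays gave medians from 0.10 (GFP-positive 1) to 0.71 (control 1). With the mean of each gene's probe sets 3 of 7 were higher, with a median of -0.03. The membrane ubiquitin ligase Syvn1 (HRD1) had 7.55, 6.57 and 7.16 on GFP-positive arrays, 6.11, 6.60 and 5.99 on GFP-negative arrays and 6.06, 6.72 and 6.06 on control arrays. GFP-positive 1 and 3 were above all other arrays, while GFP-positive 2 lay among them. The difference was 0.81 ± 0.35 from control (limma, unadjusted p = 0.042, adjusted p = 0.744) and 0.87 ± 0.35 from GFP-negative cells (limma, unadjusted p = 0.032, adjusted p = 1.00). With the mean of its 2 probe sets the difference from control was 0.32. Its adaptor Sel1l averaged 8.46 ± 0.50 in GFP-positive, 8.02 ± 1.01 in GFP-negative and 8.62 ± 0.78 in control cells, and its difference from control was -0.15 ± 0.56 in GFP-positive and -0.59 ± 0.56 in GFP-negative cells. Without control 3 these were -0.49 and -0.93, and without GFP-negative 3 the GFP-negative difference was -0.01. The 5 probe sets of Sel1l ranged from -1.32 to 1.11 in GFP-positive minus control.

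Herpud1, a scaffold of the same complex, had 6.91, 5.08 and 6.40 on GFP-positive arrays, 6.46, 7.09 and 6.83 on GFP-negative arrays and 6.94, 6.17 and 4.64 on control arrays. Control 3 and GFP-positive 2 were the lowest arrays for Herpud1, and GFP-positive minus control, 0.21 ± 0.62, became -0.42 without control 3. Edem1, which picks out misfolded glycoproteins, showed the same pattern at 5.62 on control 3 and 5.79 on GFP-positive 2, against 7.57 to 8.98 on the other 7 arrays. Its difference of 0.22 ± 0.92 from control was -0.70 without control 3 and 1.15 without GFP-positive 2. Derl1, a derlin of the export channel, averaged 9.00 ± 0.49 in GFP-positive, 9.09 ± 0.79 in GFP-negative and 8.40 ± 0.87 in control cells. Its differences from control were 0.60 in GFP-positive and 0.69 in GFP-negative cells, or 0.10 and 0.19 without control 3. A dimmer probe set of Derl1, also chosen after its values were seen, had 7.02, 7.61 and 7.30 on GFP-positive arrays, 6.96, 7.40 and 7.19 on GFP-negative arrays and 6.39, 6.35 and 6.15 on control arrays. For this Derl1 probe set limma's adjusted p from control was 0.675 in GFP-positive and 0.848 in GFP-negative cells, so neither difference passed. Only this probe set and the dimmest of Xbp1 had all control arrays below the other 6 among the 76 member probe sets above the filter, where 1.5% of all probe sets did. Derl2 averaged 9.02 ± 0.40 in GFP-positive, 8.88 ± 0.13 in GFP-negative and 8.47 ± 0.29 in control cells. A dimmer Derl2 probe set above the filter went the other way, by -0.61 for GFP-positive and -0.07 for GFP-negative minus control. Derl3 was dim at 4.40 ± 0.45 in GFP-positive, 4.53 ± 0.25 in GFP-negative and 4.43 ± 0.19 in control cells.

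At the entry to the ER, Sec61b, a subunit of the translocation channel, averaged 9.35 ± 0.48 in GFP-positive, 9.31 ± 0.21 in GFP-negative and 9.45 ± 0.58 in control cells. Ssr1, a subunit of the translocon-associated complex, averaged 10.27 ± 0.32 in GFP-positive, 10.06 ± 0.63 in GFP-negative and 9.53 ± 0.96 in control cells. The difference of 0.74 ± 0.50 between GFP-positive and control cells for Ssr1 was 0.18 without control 3, the lowest array.

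**Figure D5:**
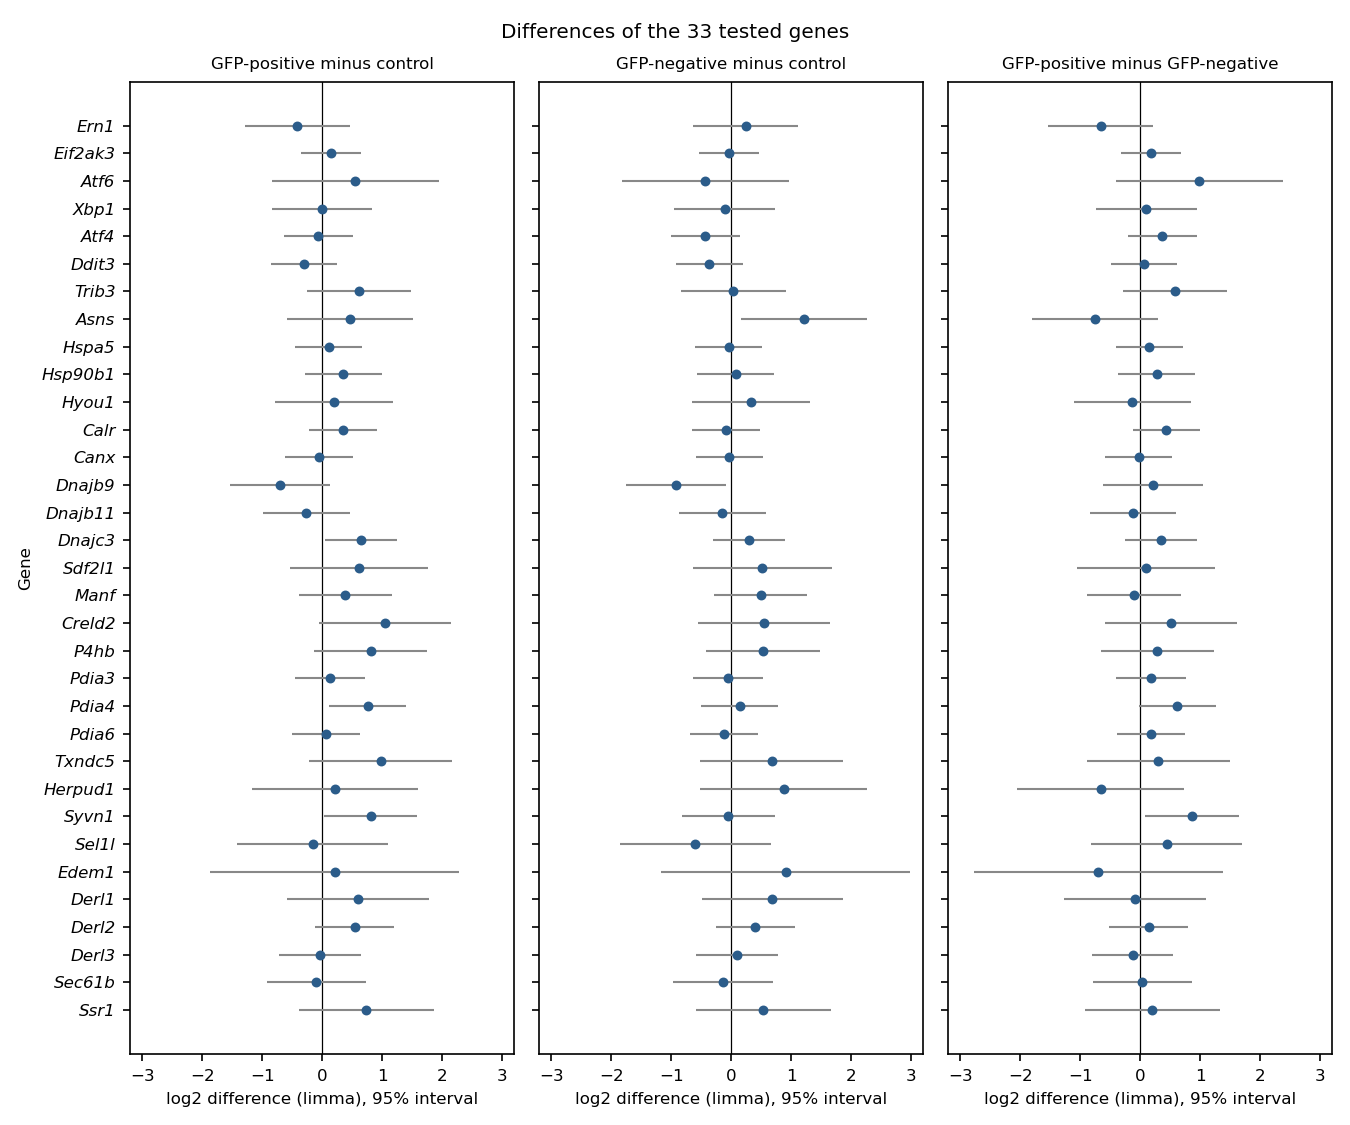
Log2 difference (point) with its 95% interval (line) from limma for the 33 tested genes in the 3 comparisons, named above each panel. The intervals of Pdia4, Dnajc3 and Syvn1 lie above 0 in GFP-positive minus control, and no gene passed the adjusted threshold.

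Counted without a model, the arrays of GFP-positive and control cells did not overlap for 5 members, all higher in GFP-positive cells (Eif2ak3, Hsp90b1, Calr, Dnajc3 and Pdia4; 4.35% of all genes did so), and 0 members were apart in the lower direction (4.26%). GFP-negative arrays were all above control for Asns and Derl2 (4.94%) and all below for Atf4, Ddit3 and Dnajb9 (6.47%). GFP-positive arrays were all above GFP-negative ones for 7 members, namely Eif2ak3, Atf6, Atf4, Calr, Dnajc3, Creld2 and Pdia4 (3.96%), and all below for 0 (2.44%). The GFP-positive arrays were above all other 6 for 4 of 33 members (12.1%), namely Eif2ak3, Calr, Dnajc3 and Pdia4, where 0.831% of all genes were. Over all member probe sets above the filter this held for 8 of 76 (10.5%), which belong to 7 genes, against 0.874% of all probe sets. These were 2 probe sets of Calr and 1 each of Dnajc3, Eif2ak3, Hsp90b1, Hspa5, Hyou1 and Pdia4. Without control 3 and GFP-positive 2, GFP-positive and control arrays were apart for 11 members in the higher and 1 in the lower direction, where smaller groups set 14.2% and 17.9% of all genes apart. GFP-negative and control arrays were then apart for 2 members higher and 5 lower (9.6% and 13.6% of genes), and GFP-positive and GFP-negative arrays for 11 higher and 1 lower (8.45% and 6.04%). With these 2 arrays left out, the GFP-positive arrays were above the other 5 for 6 members, where 3.18% of all genes were.

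Control 3 was the lowest of the 9 arrays for 12 of 33 members (36.4%), against 18.9% of all genes. The median level over the members was 7.40 on control 3 and 8.07 to 8.59 on the other arrays. GFP-positive 3 was the highest array for 9 members (27.3%, against 7.14% of all genes). Control 3 and GFP-positive 2 were together the 2 lowest arrays for 6 members (18.2%, against 8.86% of all genes), namely Ern1, Canx, Sdf2l1, Herpud1, Edem1 and Sec61b. Over the 9 arrays a member's level ranged by 0.26 to 3.36, with a median of 1.27 against 1.56 for all genes, and the median SD within groups was 0.45 against 0.49.

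Summed mRNA levels of lineage marker genes lay apart between the groups for some lineages and overlapped for others. The summed level of 11 of 12 listed granulocyte genes was 14.81 to 15.70 on GFP-positive, 14.13 to 15.35 on GFP-negative and 12.43 to 14.25 on control arrays, and all 11 measured genes were higher than control by point estimate in both the GFP-positive and the GFP-negative group. The summed level of 7 of 9 erythroid genes was 10.90 to 11.01 on GFP-positive, 10.61 to 10.87 on GFP-negative and 8.81 to 9.18 on control arrays. For the 8 stem cell genes, all measured, it was 9.15 to 9.87 on GFP-positive, 9.94 to 10.13 on GFP-negative and 10.83 to 11.17 on control arrays, and Slamf1 among them was below the filter. Plasma cells carry an abundant ER, and 9 of 10 genes of B and plasma cells summed to 9.60 to 10.67 on GFP-positive, 8.93 to 10.33 on GFP-negative and 7.61 to 10.27 on control arrays. Among these, Jchain averaged 7.66, 7.81 and 4.59 in GFP-positive, GFP-negative and control cells and Sdc1 averaged 3.99, 4.81 and 5.35, while Prdm1, which directs plasma cell formation, was below the filter. Of mast cell and basophil genes 4 of 5 were measured and summed to 8.21 to 9.23 on GFP-positive, 7.63 to 8.62 on GFP-negative and 7.43 to 7.58 on control arrays. All 5 megakaryocyte genes, with Vwf below the filter, summed to 8.05 to 8.54 on GFP-positive, 8.32 to 8.57 on GFP-negative and 8.71 to 9.78 on control arrays. All 6 monocyte and macrophage genes, with Cd14 and Adgre1 below the filter, summed to 7.90 to 11.03 on GFP-positive, 8.12 to 9.91 on GFP-negative and 7.63 to 8.78 on control arrays. Of T and NK cell genes 4 of 5 were measured, with Cd3e and Cd3g below the filter, and summed to 7.96 to 8.58 on GFP-positive, 8.21 to 8.50 on GFP-negative and 7.38 to 8.66 on control arrays. The LSK sort is meant to exclude lineage-positive cells, and its purity was not analysed here. The part of these lineage genes, and of RNA length, in the members' differences was not tested.

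The rest of the pathway was read from 4 further lists, none of which had a called gene in limma in any comparison. Of 34 other tested folding, disulfide and glycan genes, 20 were higher and 14 lower in GFP-positive than in control cells, with a median of 0.07. Nucb2, a calcium-binding protein of the secretory pathway, had the smallest p among them at 6.90 ± 0.78 in GFP-positive and 5.03 ± 0.74 in control cells, and its difference was 1.87 ± 0.47. Erp29, an ER folding factor of the disulfide isomerase family, averaged 10.91 ± 0.73 in GFP-positive and 9.25 ± 0.65 in control cells. In GFP-negative against control cells 24 of these genes were higher and 10 lower, with Nucb2 at 1.46 and Txndc11 at 0.77, and in GFP-positive against GFP-negative cells 15 were higher and 19 lower, with Erp29 at 0.94 and Prkcsh at -0.48.

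Of 25 other degradation genes, 17 were higher and 8 lower in GFP-positive than in control cells, with a median of 0.27. Selenos, a selenoprotein of the export complex, averaged 9.02 ± 0.55 in GFP-positive and 7.24 ± 1.21 in control cells, and Erlec1, an ER lectin, 8.09 ± 0.36 in GFP-positive and 6.74 ± 1.08 in control cells. In GFP-negative against control cells the split was 16 to 9, with Selenos at 1.24 and Dnajb2 at -1.25, and in GFP-positive against GFP-negative cells 18 to 7, with Dnajb2 at 1.04 and Faf2 at 0.80. Of 18 other translocon and signal peptide genes, 7 were higher and 11 lower in GFP-positive than in control cells, with a median of -0.12, beside 47.2% higher and a median of -0.03 for all genes. Its signal peptidase subunits Spcs2 and Spcs3 differed by 1.55 ± 0.51 and 0.71 ± 0.37. Spcs2 averaged 9.48 ± 0.40 in GFP-positive and 7.93 ± 1.04 in control cells. GFP-negative minus control had 6 higher and 12 lower, with Spcs2 at 1.14 and Sec63 at -1.11, and GFP-positive minus GFP-negative 8 higher and 10 lower, with Spcs3 at 0.81 and Srp68 at -0.86.

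Of 33 other stress regulators and integrated stress response genes, 20 were higher and 13 lower in GFP-positive than in control cells, with a median of 0.14. Nars, an aminoacyl-tRNA synthetase gene that ATF4 regulates, averaged 10.06 ± 0.13 in GFP-positive, 10.03 ± 0.51 in GFP-negative and 8.78 ± 0.76 in control cells. Slc7a5, an amino acid transporter, averaged 8.31 ± 0.30 in GFP-positive and 7.14 ± 0.76 in control cells. GFP-negative minus control had 17 higher and 16 lower, and there Psat1, a serine synthesis enzyme, averaged 9.87 ± 0.10 in GFP-negative and 8.76 ± 0.58 in control cells, a difference of 1.11 ± 0.35. GFP-positive minus GFP-negative had 19 higher and 14 lower, with Creb3 at -1.45 and Vldlr at -1.59. Over the 4 lists and 3 comparisons the smallest adjusted p in limma was 0.488, that of Nucb2 in GFP-positive against control cells.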

How the data were processed

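Total RNA of sorted LSK cells was amplified, biotin-labelled and hybridised to one-colour arrays. The deposited values are log2 expression values per probe set, made by the authors with RMA per the submitters' processing notes; no version is given in the sources used here. The identity of the transgene is not reported here. Scanner files were not used here, and 0 columns were left unused. Of 45101 probe sets, 64 were controls, 34945 had 1 gene in the platform annotation, 932 several and 9160 none; symbols of 34741 were matched to RefSeq by Entrez number. Each gene was represented by its brightest single-gene probe set. Genes with a mean over 9 arrays above the 40th percentile over all probe sets (4.03) were tested with limma 3.58.1 in R 4.3.3, with all 9 arrays and 3 groups in 1 fit, eBayes and Benjamini-Hochberg adjustment over 12400 genes. The fit was tested on simulated data. With 3 arrays against 3 an exact permutation test cannot go below p = 0.1, so none was run.

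The members and the other lists were chosen with earlier results of these data known. Every member is named. Array values are given for the sensors, the transcription factors, 4 chaperones (Hspa5, Hsp90b1, Calr, Canx), the 6 members with the smallest unadjusted p in each comparison and those with the largest difference either way. From the other lists the 2 genes with the smallest unadjusted p per comparison are named. Alternatives were filters, a mean over each gene's probe sets, eBayes with trend, array weights, centring, quantile normalization, a looser threshold, the 2 groups alone, a replicate block and left-out arrays. Fits of every probe set by itself, and counts of groups apart without control 3 and GFP-positive 2, were chosen after seeing the data. A planned search of protein tails was not run, since protein sequences were not analysed here. Among the tested members 5 have tied values between arrays.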

Additional observations from a re-analysis of the deposited data

How the results depend on the processing

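The count of members past the adjusted threshold was 0 in the 3 comparisons and 0 under each of 20 other settings and under fits of every probe set by itself, as was the count over all genes. Over these the smallest adjusted p of a member in limma was 0.290 for GFP-positive against control, 0.266 for GFP-negative against control and 0.590 for GFP-positive against GFP-negative. The members' median difference ranged over left-out arrays from 0.14 to 0.34, from -0.01 to 0.14 and from 0.08 to 0.23 in the same order of comparisons, and over the other settings from 0.17 to 0.27, from -0.01 to 0.12 and from 0.13 to 0.23. Leaving out 1 array turned the sign of 25, 27 and 24 of 297 member values, and the other settings turned 10, 14 and 15 of 361. Many of these values could not turn, so these shares do not measure how stable the signs were. An array outside the 2 groups compared does not enter their difference. Filters, eBayes with trend and a looser threshold do not change it either. Counted by member, 12, 15 and 15 turned at least once over left-out arrays, and 21, 18 and 18 never did. Over the other settings 9, 11 and 10 members turned at least once. Of 43 dimmer probe sets of the members above the filter, 25, 29 and 28 had the sign of the brightest one. The cause was not tested. Over all genes, unadjusted p under 0.05 was reached by 805, 691 and 316 genes, with 612 to 1368, 511 to 1202 and 203 to 984 under the alternatives.

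Same-numbered arrays of different groups deviated from their group means with correlations of -0.29 to 0.10 over the genes tested. Different-numbered arrays of different groups gave -0.11 to 0.28. With 3 arrays per group such correlations cannot decide whether same-numbered samples share mice, which the labels do not state. With the replicate block 0 members and 0 genes were called, and 1, 2 and 0 members had an unadjusted p under 0.05.

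The number of arrays limits the precision, and signal over background limits the dim members Chac1, which was below the filter, Trib3 and Derl3.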
